A study of Mus musculus with 4 samples.

Results

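The genes described here run the cell division cycle: cyclins, cyclin-dependent kinases (CDKs) and their inhibitors, the Rb and E2F regulators, and genes of the spindle, the kinetochore and the spindle checkpoint. They were a fixed list of 54 gene symbols, and each was read through every probe set that the array annotation gave to that symbol alone. Such probe sets, 125 in all, existed for 53 of the 54 genes, out of 18193 genes named in the same way. No probe set was assigned in this way to Ccnb1, which encodes cyclin B1, so it has no value here. The probe set with the highest mean log2 signal over the arrays stood for its gene. The gene was taken as measured when that mean reached 3.138, the median of all probe sets other than controls. This left 41 of the 53 members (77.4%) and 12585 of all genes (69.2%).

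RNA came from MC/9, a growth factor-dependent mouse mast cell line, and was hybridised to 4 one-colour Affymetrix arrays, on which short oligonucleotides read each transcript. One culture was left untreated (control), another received berberine at a concentration of 10 microM (BER), another anti-DNP IgE, which the labels call DNP, at 500 microg/ml, and the last received the pair of agents (BER+DNP). Treatment lasted 24 h and was followed by 6 h of culture; no times are labelled for the control. The groups shared the (B6 X A/J)F1 background, a liver origin, an age labelled as 13 days and a medium with conditioned supernatant of stimulated rat cells. Berberine is a plant alkaloid, and the labels name no antigen step for the IgE. Each group held 1 array, so no difference between 2 arrays has a replicate error or a test of its own, and the number of arrays limits the precision. Over all 4 arrays, a limma fit with both agents as additive terms was possible, with 1 residual degree of freedom; it takes the agents' effects as independent of each other. Fewer dividing cells and less transcript per cell cannot be told apart in such bulk RNA.

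Markers of the labelled cell type had a median signal of 3.04, beside 5.54 for the epithelial and 3.65 for the fibroblast markers. Of 16 mast cell markers with a probe set, 8 passed the filter, led by Gata2 at a mean of 5.87. The 8 that did not were Kit, Fcer1a, Ms4a2, Cpa3, Mcpt1, Tpsab1, Srgn and the leukocyte gene Ptprc. Of 12 epithelial markers 10 passed, led by Krt17 at a mean of 9.60, and Cdh1 and Dsp did not. Of 8 fibroblast markers 6 passed, led by Fn1 at 5.22, and Col1a1 and Vim did not. The summed linear signal of the mast cell markers was 209.4 untreated, 211.0 with BER, 242.3 with DNP and 238.8 with both. The sum of the epithelial markers was 1596.6, 1625.6, 1753.5 and 1716.8 in the same order, also higher on both arrays with the antibody, and that of the fibroblast markers 129.7, 127.2, 129.0 and 132.8. The part of these markers in the results on cell cycle genes was not tested.

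In the division cycle, D-type cyclins with Cdk4 or Cdk6, and then E-type cyclins with Cdk2, phosphorylate the Rb family and release E2F factors, which switch on genes for S phase. Cyclin A2 then acts in S phase and G2, and the B-type cyclins with Cdk1 drive entry into mitosis. There Aurora and Polo-like kinases build the spindle, and the checkpoint holds anaphase until every kinetochore is attached. Many late genes are held down in resting cells through a promoter element, the CHR (cell cycle genes homology region), which binds the MuvB complexes. Many also carry the CCAAT box, which binds NF-Y, whereas many G1 and S phase genes carry E2F sites.

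Promoter windows are shown because the mitotic and the G1 members differ in the motifs described above. These motifs are already known from such genes, so the difference is a description and not an independent finding. RefSeq windows of build GRCm38.p6, from 250 bases before to 50 bases after a start of transcription, were matched by symbol for 42 members, in 50 windows. The 130 bases from 100 before the start to 30 after it are given 5′ to 3′ on the gene's strand for Cenpf and Nek2, which had the largest berberine differences, for Bub1, which was highest in BER, for the mitotic genes Cdc20 and Ccnb2, and for the G1 gene Ccnd3; capitals mark matches to the motifs named below. They lie at chr1:189688057-189688186 on the minus strand, chr1:191821373-191821502 on the plus strand, chr2:127831830-127831959 on the minus strand, chr4:118437314-118437443 on the minus strand, chr9:70421525-70421654 on the minus strand and chr17:47504951-47505080 on the plus strand, in the same order.
Cenpf: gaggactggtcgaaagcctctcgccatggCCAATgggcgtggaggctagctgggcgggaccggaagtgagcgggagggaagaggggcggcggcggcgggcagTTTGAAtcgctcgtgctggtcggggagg
Nek2: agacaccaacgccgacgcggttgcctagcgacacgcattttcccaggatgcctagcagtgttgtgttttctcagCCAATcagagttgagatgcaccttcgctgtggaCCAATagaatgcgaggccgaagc
Bub1: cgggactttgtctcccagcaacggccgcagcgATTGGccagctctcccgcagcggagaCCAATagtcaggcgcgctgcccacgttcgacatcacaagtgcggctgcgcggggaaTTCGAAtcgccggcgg
Cdc20: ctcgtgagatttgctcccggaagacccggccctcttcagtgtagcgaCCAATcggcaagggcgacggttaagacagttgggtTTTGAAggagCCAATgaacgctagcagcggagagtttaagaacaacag
Ccnb2: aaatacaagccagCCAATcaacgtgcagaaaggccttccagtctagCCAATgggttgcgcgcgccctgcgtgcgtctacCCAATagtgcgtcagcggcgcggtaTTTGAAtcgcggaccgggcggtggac
Ccnd3: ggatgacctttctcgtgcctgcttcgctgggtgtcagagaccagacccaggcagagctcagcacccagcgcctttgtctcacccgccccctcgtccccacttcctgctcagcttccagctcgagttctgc

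Both strands were searched for the CHR (TTTGAA or TTCGAA), the CCAAT box (CCAAT) and an E2F site (TTTGGCGC, TTTCCCGC, TTTCGCGC or TTTGCCGC). The CHR and the CCAAT box occurred together in 23 of 30 windows (76.7%) of the S, G2 and mitosis members, in 1 of 20 windows (5%) of the G1 and transcription control members, and in 7.52% of all 32851 windows. Counted by gene, this was 20 of 27, 1 of 15 and 2328 of 27025. The CHR alone was matched in 19.2%, the CCAAT box in 37.4% and the E2F letters in 2.26% of all windows. E2F letters were found in 5 of the 20 G1 and transcription control windows, those of Cdk2, Cdc25a, Cdkn2a, Rbl1 and E2f2, and in 1 of the 30 later ones, that of Cdk1. Of 34 CHR matches in the members' windows, 22 lay within 50 bases of the start, a share that was not computed over all windows. Of the 30 S, G2 and mitosis windows, 17 held 2 or more CCAAT boxes, against 11.7% of all windows. Windows of the same gene can overlap, so that a site counts in each, as for Bub3, Ect2 and Prc1. Ccnd3 had no match in the 130 bases shown, while another window of that gene held a CCAAT box at -108. The CCAAT box was matched in 9 of the 20 G1 and transcription control windows and in 26 of the 30 later ones. Matches of different motifs overlapped in 1 case. A match of letters is a description and does not show that a factor binds there.

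**Figure D1:**
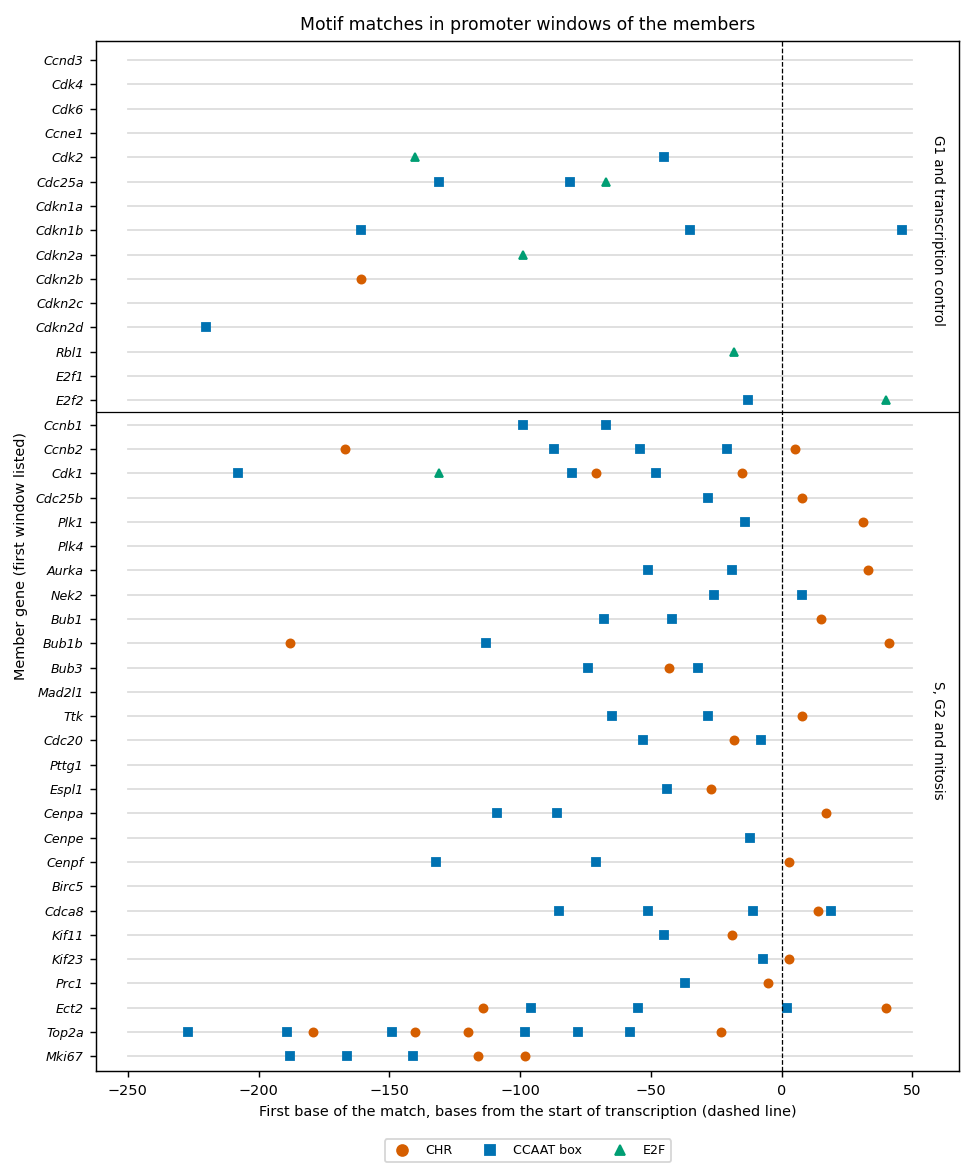
Positions of CHR (circles), CCAAT box (squares) and E2F (triangles) matches in 1 promoter window for each of 42 members, in bases from the start of transcription (x axis, dashed line at the start); G1 and transcription control genes are above the horizontal line and S, G2 and mitosis genes below it. CHR matches crowd near the start in the lower block, where 20 of 27 genes had one in a window, and are sparse in the upper one, where 2 of 15 did, 1 of them in the window drawn.

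The arrays differed little in these genes. The 41 measured members spanned a median of 0.25 on the log2 scale over the 4 arrays, against 0.29 for all measured genes, from 0.05 for Foxm1 to 0.74 for Nek2. No member was 2-fold apart in any of the 4 comparisons. At least 1.5-fold apart in 1 comparison each were 3, the kinetochore gene Cenpf, the centrosome kinase gene Nek2 and the CDK inhibitor gene Cdkn1c. The range over the 4 arrays was at least 1.5-fold in these 3 of 41 members and in 825 of all 12585 measured genes. The signals of all 53 members with probe sets are drawn by role in the plot of log2 signals.

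**Figure D2:**
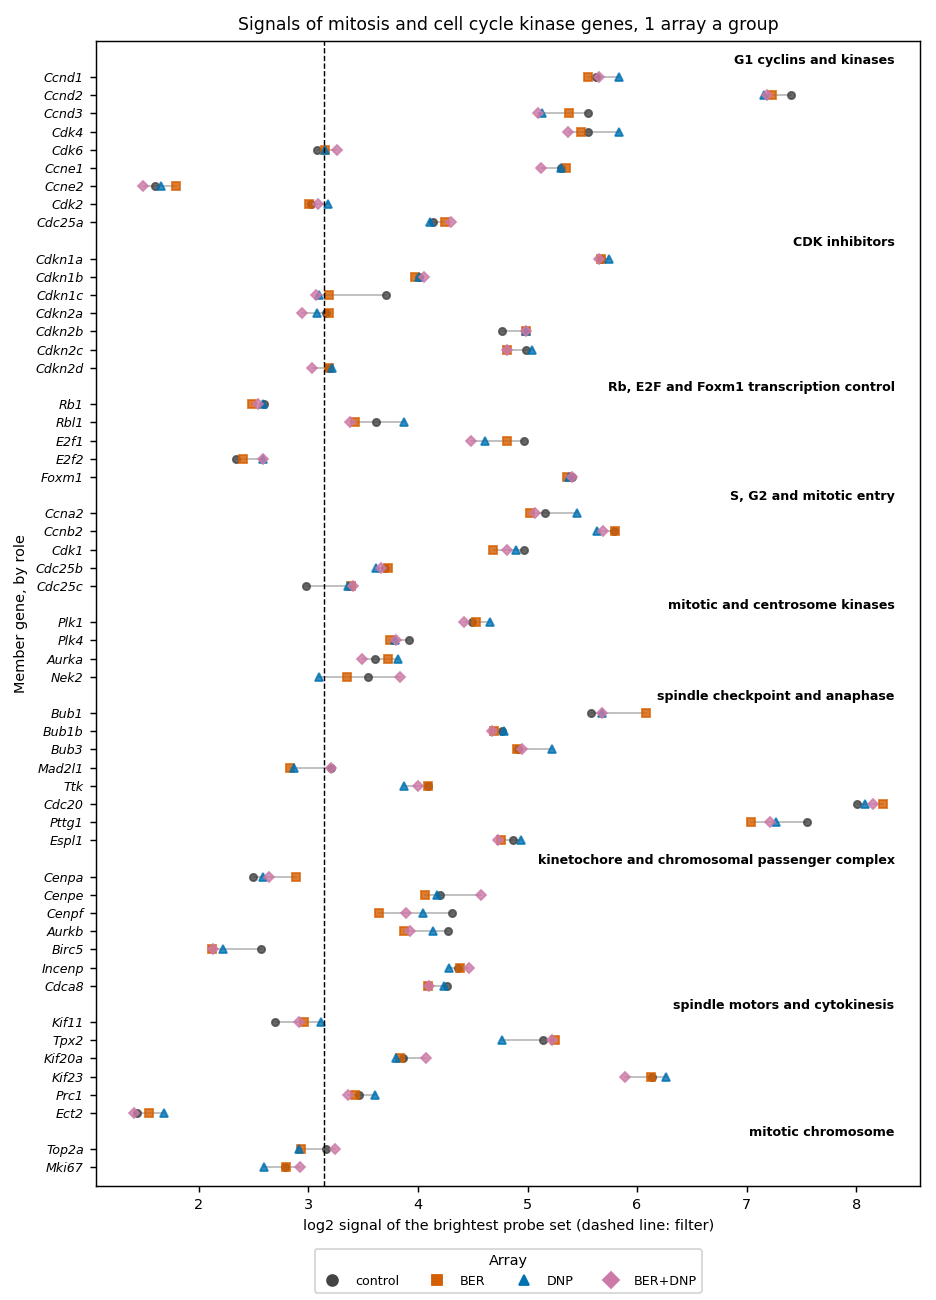
Log2 signal (x axis) of the brightest probe set of each of the 53 members with a probe set of its own, by role (y axis), with 1 symbol for each array (circle control, square BER, triangle DNP, diamond BER+DNP); the dashed line is the filter at 3.138. Most members' symbols lie close together, and Nek2, Cenpf and Cdkn1c are spread widest among those past the filter on average.

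Berberine was read in 2 pairs of arrays that share none, BER against control and BER+DNP against DNP. In BER against control, 0 of the 41 members were at least 1.5-fold higher, where 1.01% of all genes were, and 1 was at least 1.5-fold lower, where 0.985% were. In BER+DNP against DNP, 1 member was higher, against 0.509% of all genes, and 0 were lower, against 0.699%. These counts are near the background. The members' median log2 difference was -0.04 in the first pair and -0.06 in the second, beside 0.00 and -0.02 for all genes. The SD of the differences was 0.22 and 0.24 over the members and 0.23 and 0.21 over all genes.

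Counting members past 1.5-fold with one sign in both berberine pairs, 0 were higher, against 0.0795% of all genes, and 0 lower, against 0.159%. Counting only the side of 0, 19 of 41 members (46.3%) were below 0 in both pairs and 9 (22.0%) above, where 29.7% and 25.4% of all genes were. Aurkb, the kinase of the chromosomal passenger complex, stood farthest below 0 in both, at -0.40 and -0.21 on a probe set of a kind that can cross-hybridise, and Cdc25a, a phosphatase that activates CDKs, farthest above, at 0.11 and 0.19. Aurkb's other probe set, below the filter, gave -0.11 and 0.10. The surplus below 0 was also present in 6 of the 7 alternatives, at 38.5% to 52.2% of members beside 27.7% to 32.7% of all genes. Among these 6, adding 32 to the signals cannot change a side of 0. All 7 re-use the same 4 arrays, so they are not repeats. The surplus was absent when the median of all probe sets stood for a gene, where 9 of 30 members were below 0 in both pairs, beside 28.6% of all genes. Among the 21 further probe sets of members past the filter, 6 (28.6%) were below 0 in both and 7 (33.3%) above, beside 29.0% and 24.7% of such probe sets of all genes. In the additive limma fit, with Benjamini-Hochberg adjustment over all measured genes, 0 of the 41 members and 0% of all genes were called for berberine in either direction at an adjusted p under 0.05. At an unadjusted p under 0.05 there was 1 member (2.44%), Aurkb, beside 8.63% of all genes. Its fitted difference was -0.30 (95% confidence interval -0.60 to -0.01, limma adjusted p = 0.554). The control probe set for the 5′ end of beta-actin was lower with berberine in the same 2 pairs (-0.57 and -0.59), as was that for its 3′ end (-0.31 and -0.22). The spiked poly-A control probe sets differed by a median of -0.43 and -0.13, and Gapdh probe sets by -0.08 to 0.05. Their part in the members' differences was not tested.

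**Figure D3:**
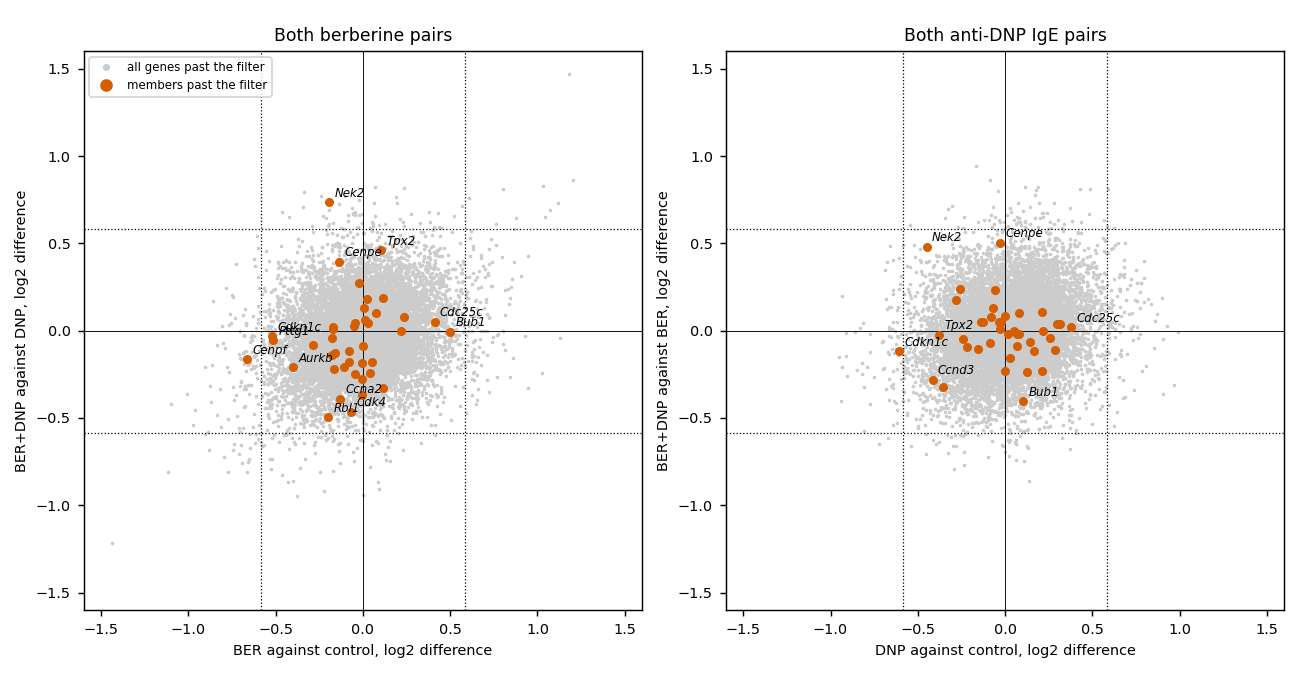
Log2 differences of the 41 measured members (orange) over those of all 12585 measured genes (grey): at left BER against control (x axis) and BER+DNP against DNP (y axis), at right DNP against control (x axis) and BER+DNP against BER (y axis). Dotted lines mark 1.5-fold; no member lies past them on both axes in the same direction in either panel.

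Second probe sets of these genes were compared with the first. Of the 16 members with 2 or more probe sets past the filter, the brightest and the next went the same way in 7 in BER against control and in 8 in BER+DNP against DNP. Over 4089 genes with 2 such probe sets the shares were 51.1% and 51.3%. In DNP against control 4 of 16 members agreed in direction and in BER+DNP against BER 8 did, beside 48.3% and 50.6% of those genes. The median gap between both readings of a member was 0.25 and 0.22 on the log2 scale, beside an SD of 0.22 and 0.24 for the differences themselves. Directions below are those of the brightest probe set unless another is named. That probe set is of a kind that can cross-hybridise for Ccnd2, Cdk4, Ccne1, Bub3, Cdc20, Pttg1, Aurkb and Prc1.

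**Figure D4:**
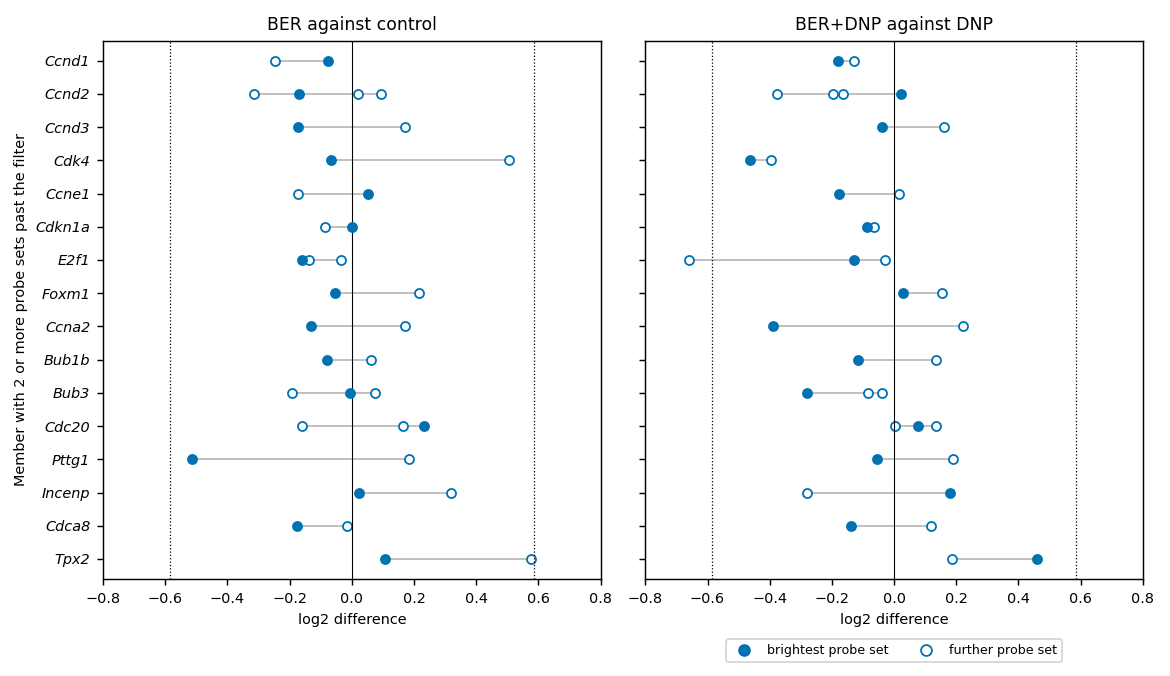
Log2 differences (x axis) in BER against control (left) and BER+DNP against DNP (right) for each probe set past the filter of the 16 members that have 2 or more (y axis); filled points are the brightest probe set, open points the further ones, and dotted lines mark 1.5-fold. For many members, such as Cdk4 and Pttg1 at left and Ccna2 at right, the points fall on both sides of 0.

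Among the G1 cyclins and kinases, 7 of 9 members were measured and 0 were 1.5-fold apart. Ccnd1, which encodes cyclin D1, had log2 signals of 5.63 untreated, 5.55 with BER, 5.84 with DNP and 5.65 with both. Ccnd2, for cyclin D2, read 7.40, 7.23, 7.16 and 7.19 in the same order, and Ccnd3, for cyclin D3, 5.55, 5.38, 5.13 and 5.10. The control was highest for Ccnd2 and Ccnd3, and for Ccnd3 both arrays with IgE were lowest; its second probe set ran the other way, at 4.38, 4.55, 4.58 and 4.74. The brightest Ccnd2 probe set is of a kind that can cross-hybridise, and the 2 next in brightness gave -0.31 and 0.02 in BER against control, on both sides of its main reading of -0.17. Cdk4, the partner kinase of D-type cyclins, read 5.55, 5.48, 5.84 and 5.37, highest in DNP, so that BER+DNP against DNP gave -0.46. That Cdk4 probe set is of a kind that can cross-hybridise. The next, which is not, also gave -0.40 there, but 0.51 in BER against control, where the brightest gave -0.07. Ccne1 (cyclin E1), Cdc25a and Cdk6 spanned between 0.18 and 0.23 over the arrays, and Ccne2 (cyclin E2) and Cdk2 were below the filter.

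Of the CDK inhibitors, 6 of 7 members were measured. Cdkn1c, which encodes p57, read 3.71 untreated, 3.19 with BER, 3.10 with DNP and 3.07 with both. The control stood above the 3 treated arrays, which lay within 0.12 of one another; DNP and BER+DNP were below the filter, so that the gene passed it through the control signal. DNP against control gave -0.61, a 1.52-fold lower signal that ranked below all but 0.556% of the genes, and BER against control gave -0.52; both use the one control array. Cdkn1a, which encodes the p53 target p21, read 5.67, 5.67, 5.74 and 5.65, and its other probe set stayed between 4.56 and 4.65. Cdkn1b, for p27, read 4.01, 3.97, 4.01 and 4.05. Cdkn2c, for the INK4 inhibitor p18, read 4.98, 4.82, 5.04 and 4.82, lower in both berberine arrays by -0.17 and -0.22. Cdkn2b, for p15, read 4.77 in control and 4.98 in each treated array. Cdkn2d, for p19, gave differences from -0.19 to 0.03, and Cdkn2a, for p16 and p19ARF, was below the filter.

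Within the Rb and E2F group, 3 of 5 members were measured, and Rb1 itself and E2f2 were below the filter. Rbl1, for the Rb relative p107, read 3.62 untreated, 3.42 with BER, 3.88 with DNP and 3.38 with both. On this probe set its differences with berberine were -0.20 and -0.50. Its other probe sets, all below the filter, gave -0.10 and -0.22, 0.34 and 0.19, and -0.06 and 0.10 in the same pairs. E2f1 read 4.97, 4.81, 4.61 and 4.49, with the control highest and BER+DNP lowest, and differed by -0.35 in DNP against control and -0.32 in BER+DNP against BER. Its second probe set gave 0.07 in both of those, and another 0.13 and -0.39, so the order of E2f1 over the arrays was that of 1 probe set. That last probe set, of a kind that can cross-hybridise, also gave -0.66 in BER+DNP against DNP and -0.14 in BER against control. Foxm1, a transcription factor for late cell cycle genes, was the flattest member, at 5.41, 5.36, 5.38 and 5.40.

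For S phase, G2 and mitotic entry, 5 of 6 members were measured. Ccna2, for cyclin A2, read 5.16 untreated, 5.03 with BER, 5.45 with DNP and 5.07 with both, while its second probe set read 3.78, 3.96, 3.83 and 4.05. The first was lower in both berberine arrays (-0.13 and -0.39) and the second higher (0.17 and 0.22). Cdk1, the kinase that drives entry into mitosis, read 4.96, 4.68, 4.89 and 4.81, lower by -0.28 and -0.08 with berberine. Cdc25c, a phosphatase that activates Cdk1, read 2.98, 3.39, 3.36 and 3.41, with the control lowest and below the filter. Ccnb2 (cyclin B2) lay between 5.63 and 5.80, and Cdc25b between 3.61 and 3.73.

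The 4 mitotic and centrosome kinase genes were all measured. Nek2, which encodes a kinase that separates centrosomes, read 3.55 untreated, 3.35 with BER, 3.10 with DNP and 3.83 with both. BER+DNP was highest and DNP lowest, so that BER+DNP against DNP gave 0.74, a 1.66-fold higher signal that exceeded 99.9% of the genes, while BER against control gave -0.19. The DNP signal was below the filter, as were the 3 other Nek2 probe sets, which gave -0.02, 0.02 and 0.38 in BER+DNP against DNP. Aurka, for Aurora A, read 3.61, 3.73, 3.82 and 3.49, and its differences with berberine were 0.12 and -0.33. Plk1, the main Polo-like kinase gene, lay between 4.42 and 4.66, and Plk4, which drives centriole duplication, between 3.75 and 3.91.

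Of the spindle checkpoint and anaphase genes, 7 of 8 were measured. Bub1, a checkpoint kinase gene, read 5.58 untreated, 6.08 with BER, 5.68 with DNP and 5.68 with both. BER alone was high, by 0.50 or 1.42-fold over control, and BER+DNP against DNP gave -0.01. Pttg1, for securin, read 7.55, 7.04, 7.27 and 7.21, with the control highest and BER lowest (-0.51 against control and -0.06 in the other pair). Those readings are from a probe set of a kind that can cross-hybridise. A dimmer Pttg1 probe set, not of that kind, gave 0.18 and 0.19. Cdc20, which activates the anaphase-promoting complex, read 8.01, 8.24, 8.08 and 8.16, and its other bright probe set 8.09, 7.93, 8.10 and 8.10. Bub1b, Bub3 and Ttk of the checkpoint and Espl1, for separase, had differences from -0.28 to 0.31 in all 4 comparisons. Mad2l1 was below the filter.

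In the kinetochore and chromosomal passenger group, 5 of 7 members were measured. Cenpf, for a large outer kinetochore protein, read 4.31 untreated, 3.65 with BER, 4.05 with DNP and 3.89 with both. Control was highest and BER lowest; BER against control gave -0.66, a 1.58-fold lower signal that ranked below all but 0.572% of the genes, and BER+DNP against DNP gave -0.16. The 2 dimmer Cenpf probe sets, below the filter, gave 0.29 and 0.00 in BER against control, and the median of all 3 gave 0.21. Cenpe, for a kinetochore motor, read 4.20, 4.07, 4.18 and 4.57, with BER+DNP highest. Aurkb read 4.27, 3.88, 4.14 and 3.93, lower in both berberine arrays. Cdca8, for borealin, gave -0.18 and -0.14 with berberine, and Incenp 0.02 and 0.18, while Cenpa and Birc5 (survivin) were below the filter. Second probe sets past the filter, of kinds that can cross-hybridise, gave -0.02 and 0.12 for Cdca8 and 0.32 and -0.28 for Incenp.

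Among spindle motor and cytokinesis genes, 4 of 6 were measured. Tpx2, which activates Aurora A on the spindle, read 5.14 untreated, 5.25 with BER, 4.77 with DNP and 5.23 with both, with DNP lowest. A second Tpx2 probe set, of a kind that can cross-hybridise, read 4.42, 4.99, 4.85 and 5.04, with control lowest; both were higher with berberine in both pairs, by 0.11 and 0.46 and by 0.58 and 0.19. Kif23, a motor of the central spindle, read 6.14, 6.13, 6.26 and 5.89, lowest in BER+DNP. Kif20a, a cytokinesis motor, and Prc1, which bundles midzone microtubules, differed by -0.25 to 0.27, and Kif11 and Ect2 were below the filter.

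The proliferation marker Mki67 and the chromosome gene Top2a were both below the filter. Mki67 read 2.79 untreated, 2.80 with BER, 2.59 with DNP and 2.92 with both. The 2 brightest Top2a probe sets read 3.16, 2.93, 2.91 and 3.24, and 3.27, 2.60, 3.24 and 3.08. The second of these was low in BER alone, at -0.67 against control, and the first was low in BER and DNP. Over the 12 members below the filter, differences of the brightest probe sets ran from -0.44 to 0.42 in the 4 comparisons; at such signals they show neither a change nor its absence.

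The antibody was also read in 2 pairs that share no array. In DNP against control, 0 members were at least 1.5-fold higher, against 0.803% of all genes, and 1, Cdkn1c, was lower, against 0.628%. In BER+DNP against BER, 0 were higher, against 0.556%, and 0 lower, against 0.358%. In both pairs together, 0 were higher and 0 lower, beside 0.0159% of all genes in each direction. The medians of the members were -0.00085 and -0.018, beside 0.020 and 0.00 for all genes. Of the members, 5 of 41 (12.2%) were above 0 in both pairs and 9 (22.0%) below, where 29.4% and 26.0% of all genes were. The further probe sets of members ran the other way, with 10 of 21 (47.6%) above 0 in both and 2 (9.52%) below, beside 27.7% and 26.9% of such probe sets of all genes. With the median of all probe sets standing for a gene, 8 of 30 members (26.7%) were above 0 in both and 6 (20%) below. The shares of all genes were then 28.6% and 26.4%, so the shortfall above 0 was absent. In the additive limma fit, 0 members and 0% of all genes were called for the antibody in either direction at an adjusted p under 0.05. At an unadjusted p under 0.05 there were 2 members (4.88%), E2f1 and Ccnd3, beside 7.29% of all genes. The fitted difference was -0.34 for E2f1 and -0.35 for Ccnd3 (limma adjusted p = 0.605 for each). Cenpe had the highest difference of BER+DNP against BER (0.51), Bub1 the lowest (-0.40), and Cdc25c the highest of DNP against control (0.38).

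Differences were also read by promoter motif, with no test. In BER against control, the 16 measured members with a CHR ranged from -0.66 to 0.50, and the 15 with a window but no CHR from -0.51 to 0.11, with medians of -0.0007 and -0.14. In BER+DNP against DNP the medians were -0.13 with and -0.06 without the CHR.

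Other genes of the pathway were taken from lists of the anaphase-promoting complex, further kinetochore and checkpoint genes, spindle motors, condensin and cohesin, the E2F and MuvB factors and further CDK regulators. Of 133 symbols listed, 86 were measured. At least 1.5-fold higher in BER against control was 1, the motor gene Kif15 (0.61), beside 1.01% of all genes. In BER+DNP against DNP 1 was higher, the kinetochore gene Kntc1 (0.66), beside 0.509%. In these pairs 0 were lower, beside 0.985% and 0.699%. In DNP against control 0 were higher and 0 lower, beside 0.803% and 0.628%. In BER+DNP against BER both counts were also 0, beside 0.556% and 0.358%. These counts are near the background. Kif15 read 2.98 untreated, 3.59 with BER, 3.50 with DNP and 3.53 with both, and Kntc1 3.14, 3.06, 2.88 and 3.54, so each crossed the filter. Kntc1 passed it on average through the BER+DNP signal. None was 1.5-fold apart in both pairs of either treatment. Of all genes, 0.0795% were higher and 0.159% lower in both berberine pairs, and 0.0159% in each direction in both antibody pairs. The medians were -0.01 and -0.05 in the berberine pairs and 0.06 and 0.04 in the antibody pairs, beside 0.00 and -0.02, and 0.020 and 0.00, for all genes.

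Within these lists, the members with the widest range were these. Anapc2, of the anaphase-promoting complex, read 2.95 untreated, 3.28 with BER, 3.16 with DNP and 3.61 with both. It passed the filter on average through the BER+DNP signal, and its control was below it. Anapc2 was higher with berberine in both pairs (0.33 and 0.44) and Anapc7 lower (-0.48 and -0.19). The cohesin gene Rad21 gave -0.30 and -0.34 and the condensin gene Ncapd3 -0.20 and 0.33. Cks1b, a CDK-binding subunit, gave -0.23 and -0.52, and Ccnh, of the CDK-activating kinase, 0.04 and -0.23. Ckap5, a microtubule polymerase gene, gave 0.19 and 0.47, the kinetochore gene Dsn1 -0.52 and 0.06, Mybl2 0.20 and 0.09 and E2f6 0.21 and 0.10.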

How the data were processed

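The values deposited by the authors are log2 signals on 4 Affymetrix Mouse Genome arrays for 45101 probe sets, made with Affymetrix Expression Console, per the submitters' processing notes; which version and algorithm were used is not given in the sources used here. The log2 scale was read from the values. The array medians were nearly equal (3.13 to 3.15), so the values were used as deposited. The 64 control probe sets were set apart. Symbols came from a platform annotation of 2016; the gene identifiers of 53 members matched RefSeq and 0 symbols differed. One probe set assigned to several genes, 1 of them a member, was not used. Differences are between 2 arrays and count from 1.5-fold, with no test. An additive fit of both agents over the 4 arrays (limma 3.58.1, R 4.3.3), chosen after the data were seen, gave the only p-values, adjusted over all measured genes.

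Members and lists were chosen with earlier results of these data known, as were the motifs. Signals on all arrays are given for members past 1.5-fold, the 2 widest members of each role and 9 fixed genes; Foxm1, Cdc20, Aurkb and Cdkn2b were added after their values were seen; genes of other lists are the 2 widest of each. Python 3.11.15 and pandas 2.3.3 were used; the steps were tested on simulated arrays. The 7 alternatives are in the closing section.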

Additional observations from a re-analysis of the deposited data

Results flagged for a closer look

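Nek2 stood on opposite sides of 0 in the 2 berberine pairs, at -0.19 without the antibody (BER against control) and 0.74 with it (BER+DNP against DNP), a difference of 0.93 between the pairs. Each side is 1 pair of arrays, and the difference was not tested. Nek2 was the only one of the 41 measured members with opposite signs and 1 side past 1.5-fold. The difference between the pairs was at least 1.5-fold in 1 of the 41 members and in 537 of all 12585 measured genes. The dimmer Nek2 probe sets, all below the filter, gave differences of 0.17 and -0.02, -0.26 and 0.02, and -0.42 and 0.38 in the same pairs.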

How the results depend on the processing

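No paired analysis was possible by replicate number, because each group holds 1 array; over the 2 pairs of each agent, an additive limma fit, added after seeing the data, called 0 members higher and 0 lower for either agent. With the median of all probe sets of a gene, 0 of 30 members were 1.5-fold lower in BER against control. In BER+DNP against DNP, 0 were 1.5-fold higher. In both berberine pairs 9 (30%) were below 0, beside 28.6% of all genes. In both antibody pairs 8 (26.7%) were above 0, beside 28.6%. Cenpf reversed to 0.21 in BER against control. With the filter at the 75th percentile, which left 23 members, the same 2 counts past 1.5-fold and the lower count in DNP against control were 0. In both berberine pairs 12 (52.2%) were below 0 and 4 (17.4%) above, beside 32.7% and 24.3% of all genes. In both antibody pairs 3 (13%) were above 0, beside 31.1%. With 32 added to the signals, all 3 counts were 0. Under the 7 other settings, the remaining 127 recomputed counts and medians stayed within 1.5 times or 0.1; these include all those under quantile normalization, centring, no filter and removal of cross-hybridising probe set types. Of 1480 recomputed differences of single members, 199 moved by 0.1 or more and 1 reversed. The cause was not tested. Signals near the background limit what the 12 members below the filter can show.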
